A study of Sus scrofa with 24 samples.

Results

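RNAseq data of liver were compared between 5 intact boars and 5 castrated boars (barrows) that had not received Sustanon, a mixture of testosterone esters. These were 10 of the 24 pigs sequenced, with 1 library per pig, and they were chosen by the type of pig and the treatment in the sample labels. Boars 25 and 27 and barrows 13, 14 and 15 were untreated. Boars 22, 23 and 24 and barrows 8 and 9 had received Myodin, a nandrolone ester and thus itself an anabolic androgen, at 5 mg/kg of body weight by 5 intramuscular injections from day 94 to day 110. All animals were crossbred growers of Large White, Landrace and Duroc stock, and liver was taken at slaughter. The time of castration is not given in the sources used here. The question is which liver transcripts differ with the testes present, with the treatment held as a covariate; sows and pigs given Sustanon were left out.

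The testes of the boar secrete testosterone and large amounts of androstenone, a steroid that is stored in fat and, together with skatole, causes boar taint. The liver clears both compounds and makes bile acids, cholesterol, lipoproteins, clotting factors and insulin-like growth factor 1. Androgens can act on it directly and also through the pattern of growth hormone release. Castration removes the gonadal steroids, while steroids of the adrenal gland remain.

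The library totals were 9267780 to 12359045 counts in boars and 9517088 to 14017276 in barrows, and their means did not separate (exact two-sided permutation test, p = 0.667, where the smallest p that 5 against 5 pigs allow is 0.00794). The 10 genes with most counts took 24.7% ± 2.93 (SD, n = 5) of the counts in boars and 28.4% ± 2.22 (n = 5) in barrows (exact permutation test, p = 0.0635). Y-linked genes checked the labels. KDM5D and EIF1AY had counts in all 5 boars and in barrows 8, 9, 13 and 14, but the library labelled barrow 15 had 0 counts of KDM5D and 1 count of EIF1AY, against its label as a male. Many counts and calls are therefore also given without that library, but not those of DESeq2 or of the fit of all 24 pigs. On the first principal component, which held 26.1% of the variance, boars 23 and 24 stood at 43.3 and 39.6 while the other 8 pigs lay between -21.3 and 0.54. The hepatocyte markers ALB, APOA1, APOB and TTR were among the 7 hepatocyte markers measured and none was at 0. Of the pancreas markers none was in the deposited table, and no skeletal muscle marker passed the filter on low counts.

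Few genes differed after correction for the number tested. A gene is called changed when the Benjamini-Hochberg adjusted p of the edgeR quasi-likelihood test was under 0.05 and the log2 fold change was at least 1 in size. Of 8484 tested genes, 6 changed (0.0707%), of which PNPLA3, IL15 and ENSSSCG00000032840 rose in boars (0.0354%) and NT5E, CA2 and RTL4 fell (0.0354%). At an unadjusted p under 0.05 there were 1083 genes (12.8%), 563 of them higher in boars (6.64%) and 520 lower (6.13%). DESeq2, the tool named by the study, was run on all 13463 genes without the filter on low counts, so that tool and filter changed together. It called 59 genes changed (0.438%), 25 higher and 34 lower, and these contained the 6 genes and 2 genes with counts in 1 barrow only, which the filter had removed. Levels are given as CPM, the counts of a gene relative to the library total on a common scale, adjusted by the trimmed mean of M-values. In 283 genes (3.34%) the 5 boars did not overlap the 5 barrows in CPM, with 132 genes higher (1.56%) and 151 lower (1.78%) in boars. Without the library labelled barrow 15, 1 gene changed and 1010 of 8464 tested genes had an unadjusted p under 0.05, while 209 of the 8484 genes were higher and 255 lower without overlap (5.47%).

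**Figure D1:**
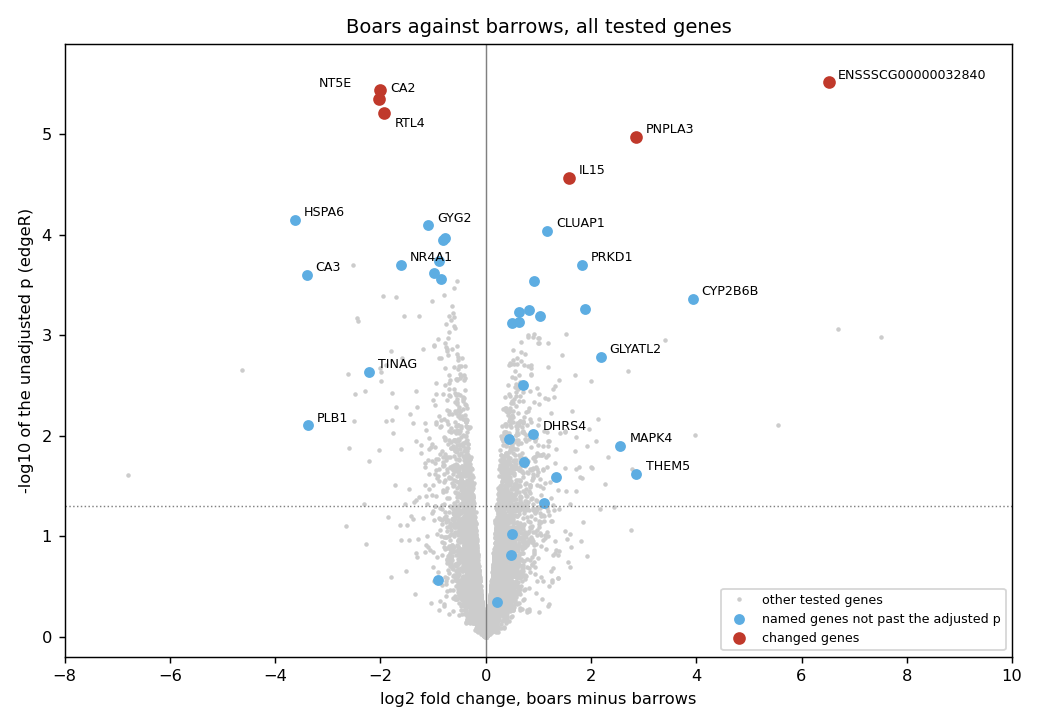
Each point is a tested gene, with the log2 fold change of boars minus barrows on the x axis and -log10 of the unadjusted edgeR p on the y axis; red marks the 6 changed genes, blue the other named genes, and the dotted line an unadjusted p of 0.05. The 6 changed genes lie at the top, with log2 fold changes from -2.03 to 6.52.

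NT5E, the cell surface enzyme CD73 that turns extracellular AMP into adenosine (ENSSSCG00000004291, Sscrofa11.1 chromosome 1, 54400786 to 54450743), had CPM of 5.86 and 8.16 in untreated boars 25 and 27 and of 8.14, 5.44 and 4.24 in Myodin boars 22, 23 and 24. In barrows it had 27.8, 33.7 and 18.96 in untreated pigs 13, 14 and 15 and 19.8 and 31.0 in Myodin pigs 8 and 9. Every boar lay below every barrow. The gene fell 4.04-fold, with a log2 fold change of -2.01 (SE 0.24, edgeR adjusted p = 0.0126), and it alone still passed without the library labelled barrow 15 (log2 fold change -2.11, edgeR adjusted p = 0.0242).

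CA2, a cytosolic carbonic anhydrase that hydrates carbon dioxide (ENSSSCG00000006140), had CPM of 38.0 and 39.8 in untreated boars and 46.0, 14.8 and 31.3 in boars 22, 23 and 24. The untreated barrows 13, 14 and 15 had 154, 178 and 155 and Myodin barrows 8 and 9 had 118 and 126. The boars again lay below all barrows, with boar 23 lowest. The log2 fold change was -2.03 (SE 0.24, edgeR adjusted p = 0.0126; 0.0547 without the library labelled barrow 15). Per transcript length CA2 was the most abundant of the 6 genes, with the mean of the deposited TPM (transcript abundance relative to length and library total) at 24.03 in boars and 96.1 in barrows.

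RTL4, a gene of the X chromosome derived from a retrotransposon Gag protein (ENSSSCG00000012589, chromosome X, 91920451 to 92333326), was low in all pigs. Its CPM were 0.901, 0.714, 0.775, 1.05 and 1.18 in boars 25, 27, 22, 23 and 24, and 3.76, 3.21, 3.62, 3.65 and 3.28 in barrows 13, 14, 15, 8 and 9. The spread within each group was small (SD 0.193 in boars and 0.243 in barrows, n = 5 each) against means of 0.924 and 3.503. The boars had only 7 to 12 counts each, so counting error limits what their spread shows about differences between pigs. The log2 fold change was -1.94 (SE 0.24, edgeR adjusted p = 0.0130; 0.0547 without the library labelled barrow 15).

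PNPLA3, a lipid droplet protein with triglyceride and retinyl ester hydrolase activity that responds to feeding (ENSSSCG00000027266, chromosome 5, 5075608 to 5092599), was the changed gene with a symbol that rose most. Its CPM were 23.7 and 11.3 in untreated boars, 11.9, 12.8 and 5.81 in boars 22, 23 and 24, 1.02, 1.72 and 1.70 in untreated barrows and 1.69 and 2.71 in barrows 8 and 9. The lowest boar, boar 24, lay above the highest barrow, barrow 9. The log2 fold change was 2.86 (SE 0.38, edgeR adjusted p = 0.0180; 0.0851 without the library labelled barrow 15), a 7.27-fold rise.

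IL15, a cytokine that maintains natural killer cells and memory T cells (ENSSSCG00000009051, chromosome 8, 85666963 to 85740980), had CPM of 9.01, 6.22, 7.29, 6.10 and 11.13 in boars 25, 27, 22, 23 and 24. In barrows 13, 14, 15, 8 and 9 it had 2.84, 1.95, 2.24, 3.03 and 2.78. The groups did not overlap, and boar 24 was highest. The log2 fold change was 1.59 (SE 0.23, edgeR adjusted p = 0.0381; 0.124 without the library labelled barrow 15). Leukocyte markers, 11 of 15 in the table, summed to 176 to 268 CPM in boars and 181 to 229 CPM in barrows, and their part in the IL15 difference was not tested. In bulk liver, more cells of a type and more RNA per cell cannot be told apart.

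ENSSSCG00000032840 has no symbol in the deposited table or the reference tables used. It had 146, 69, 60, 20 and 6 counts in boars 25, 27, 22, 23 and 24, and 0, 1, 1, 0 and 1 counts in barrows 13, 14, 15, 8 and 9. Every boar had more counts than any barrow, and the boars differed among themselves from 0.591 to 13.2 CPM. With 3 counts over all barrows, the ratio of summed counts per scaled library size was 98.1, with an exact 95% counting interval of 33.2 to 478 that covers counting error only. The edgeR adjusted p was 0.0126, and 0.0547 without the library labelled barrow 15. With at most 1 count in any barrow, the gene passed the filter on low counts only through the boars, where it is high. Its p is therefore given as a description. Without that filter all 6 changed genes were called as well.

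**Figure D2:**
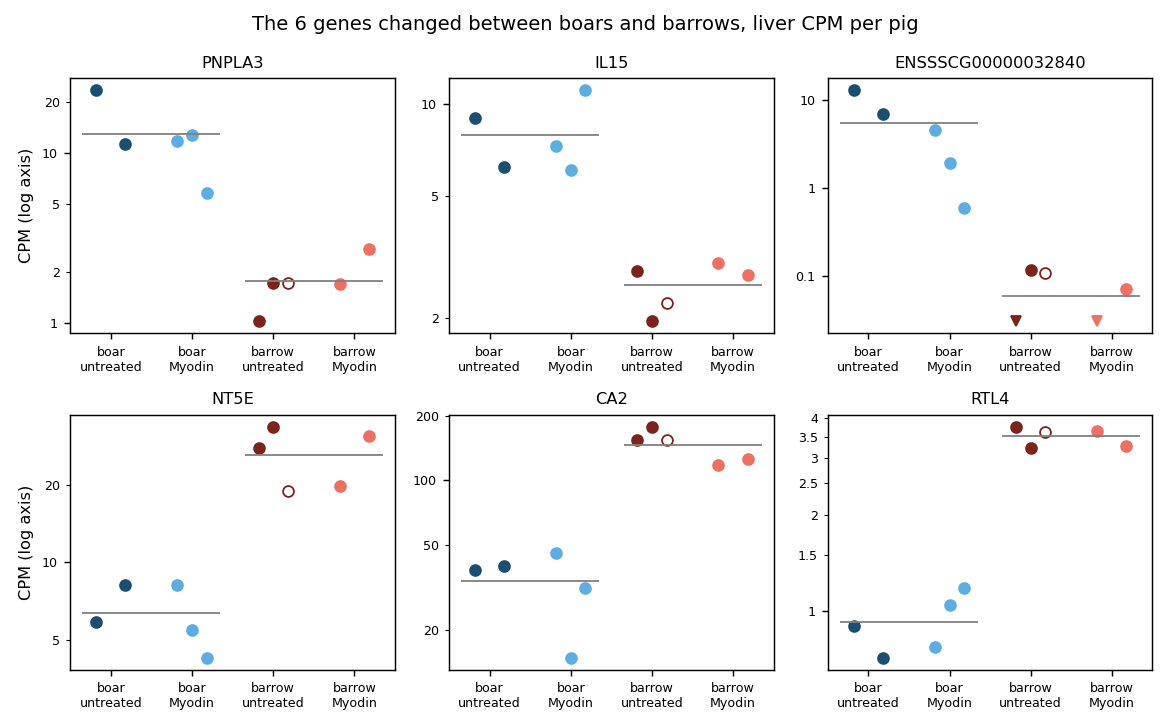
Each point is the CPM of 1 pig on a log axis, split into untreated and Myodin boars and barrows; grey lines are means over the 5 boars and the 5 barrows, the open point is the library labelled barrow 15, and triangles are pigs with 0 counts, drawn at 0.03. In every panel the boars do not overlap the barrows, for example 5.81 to 23.7 CPM against 1.02 to 2.71 for PNPLA3.

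The calls rested on few pigs. Leaving out barrow 8, boar 25 or boar 27 left 0 changed genes each, and leaving out boar 22 gave 36 (0.425% of 8467 genes), among them the 6. The signs of the 6 genes held in all 10 of these fits, which follows from boars and barrows not overlapping in them. Over them, the edgeR adjusted p of NT5E ranged from 0.00829 to 0.0714, of CA2 from 0.00179 to 0.0809, of RTL4 from 0.0156 to 0.0820, of PNPLA3 from 0.0140 to 0.0965 and of IL15 from 0.0212 to 0.171.

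Below this threshold, the genes with the smallest unadjusted p were taken in each direction until 12 were named. None of these 19 passed the adjusted edgeR test. All of them had boars and barrows that did not overlap, against 3.34% of all tested genes, which their choice by the p of the same values favours. In DESeq2 all 19 had an adjusted p of at most 0.0105, and 9 were called changed, namely HSPA6, GYG2, CLUAP1, NR4A1, PRKD1, CA3, CYP2B6B, TMEM52 and MLH3. The edgeR fit of all 24 pigs called the first 5 of these and CYP2B6B, and edgeR without boar 22 called PRKD1, MLH3, CA3, CLUAP1, TMEM52, GYG2 and CYP2B6B (edgeR adjusted p from 0.0156 to 0.0327). Without the library labelled barrow 15 none turned in sign, which genes without overlap could not do. The edgeR adjusted p of the 19 genes then lay between 0.0851 and 0.218. On the lower side, HSPA6, an inducible heat shock protein of the HSP70 family, had 1.08 to 3.88 CPM in boars and 6.60 to 59.6 CPM in barrows (log2 fold change -3.63, SE 0.59, edgeR adjusted p = 0.0853). CA3, another carbonic anhydrase, had 0.477 to 3.72 CPM in boars and 4.56 to 50.7 CPM in barrows (-3.41, SE 0.64, edgeR adjusted p = 0.123). In both genes the barrows were spread widely, with SDs of 24.6 and 19.9 CPM (n = 5). GYG2, the liver glycogenin that primes glycogen synthesis, had 19.4 ± 2.36 CPM in boars and 41.4 ± 10.6 CPM in barrows (SD, n = 5 each; log2 fold change -1.10), and GCLC, the catalytic subunit of the enzyme that limits glutathione synthesis, had 54.7 ± 9.99 and 101 ± 15.98 CPM (-0.88). NR4A1, an orphan nuclear receptor of the immediate early response, had 4.39 to 9.39 CPM in boars and 10.96 to 33.5 CPM in barrows (-1.62). The ubiquitin ligase gene WWP2 (-0.77), the Arf GTPase activator gene ASAP3 (-0.82), TTC36 (-0.98) and the Golgi mannosidase gene MANEA (-0.86) completed the lower side.

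On the higher side, the steroid- and drug-metabolising cytochrome P450 gene listed as CYP2B6B had 80.4 and 29.8 CPM in boars 25 and 27, 45.9, 612 and 236 CPM in boars 22, 23 and 24, and 4.90 to 12.8 CPM in barrows (log2 fold change 3.93, SE 0.79, edgeR adjusted p = 0.148). Boars 23 and 24, which stood apart on the first principal component, were the highest, and the other 3 boars still lay above every barrow. How reads shared with close relatives in the P450 2B family were counted is not given in the sources used here, so this level is uncertain, as are those of HSPA6, DHRS4 and GLYATL2. PRKD1, a serine/threonine kinase, had 4.96 to 17.4 CPM in boars and 2.41 to 3.56 CPM in barrows (1.82). CLUAP1, a protein of transport within cilia, had 60.9 ± 13.9 CPM in boars and 27.5 ± 5.20 CPM in barrows (1.16). TMEM52 (1.89), the mismatch repair gene MLH3 (1.02), CKAP4 of the endoplasmic reticulum (0.92), TNIP2, an inhibitor of NF-kB signalling (0.83), the ubiquitin ligase gene RNF121 (0.64), the endothelial TGF-beta family receptor gene ACVRL1 (0.64) and the tetraspanin gene TSPAN4 (0.50) completed the higher side. Endothelial markers, 8 of 12 in the table, summed to 697 to 997 CPM in boars and 561 to 727 CPM in barrows, and their part in the ACVRL1 difference was not tested.

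The 15 genes of the study's androgen panel reported here were selected by the study from comparisons of treated with control pigs that included these animals, so their direction is not independent evidence. None changed between boars and barrows in the edgeR fit of the 10 pigs. With 1 pig left out in turn, the log2 fold change of THEM5 ranged from 2.29 to 5.36, against 2.86 with all 10. Its smallest edgeR adjusted p, 0.0422, was that of the fit without barrow 9. The barrows left in that fit had at most 7 counts, so THEM5 was tested through the boars and this p is a description. DESeq2 called GLYATL2 (2.20, DESeq2 adjusted p = 0.0214) and TINAG (-2.26, DESeq2 adjusted p = 0.00681), and the edgeR fit of all 24 pigs called MAPK4 (3.07, edgeR adjusted p = 0.00422) and THEM5 (3.72, edgeR adjusted p = 0.00745). In 11 of 15 the unadjusted edgeR p was under 0.05, 9 higher and 2 lower (12.8% of all tested genes), 12 had a positive log2 fold change, and the median was 0.71 beside 0.02 over all tested genes. Without the library labelled barrow 15 the number was 8. Only GLYATL2 and TINAG had boars and barrows that did not overlap, 2 of 15 beside 3.34% of all tested genes. GLYATL2, which conjugates glycine to acyl-CoA, had 1.35, 1.12, 0.775, 5.82 and 2.76 CPM in boars 25, 27, 22, 23 and 24 and 0.230 to 0.712 CPM in barrows (log2 fold change 2.18, SE 0.53, edgeR adjusted p = 0.171). With at most 8 counts in any barrow, GLYATL2 passed the filter on low counts only through the boars, where it is high. Its edgeR p-values and its lack of overlap are therefore given as a description. TINAG, a basement membrane glycoprotein, had 0.191 to 1.78 CPM in boars and 2.24 to 14 CPM in barrows (-2.23, SE 0.57, edgeR adjusted p = 0.179), where barrow 14 was highest and boars 23 and 24 were lowest. The primers used for both genes in Real-Time PCR are shown 5′ to 3′, as they mark the transcripts whose groups separated.
GLYATL2 forward: ggcatgcccccaggtta
GLYATL2 reverse: ctcttggcaaccttggatctg
TINAG forward: aaaactgcaattcctgcacatg
TINAG reverse: ggcatacgtgctgggaaca

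Other panel genes overlapped. TERF2, a telomere-binding protein, had 126, 115, 91.4, 118 and 119 CPM in boars 25, 27, 22, 23 and 24, against 51.1, 55.1 and 57.5 in untreated barrows and 71.1 and 110 in barrows 8 and 9. DHRS4, a carbonyl and retinal reductase, had 1335 ± 299.8 CPM in boars and 727 ± 386 CPM in barrows, and again barrow 9 lay among the boars at 1295 CPM. DHDH, a dihydrodiol dehydrogenase, had 270 ± 43.4 and 193 ± 42.3 CPM. PLB1, a phospholipase, had 0.197 to 1.43 CPM in boars, while barrows 13, 14 and 9 had 16.3, 9.295 and 14.2 CPM and barrows 15 and 8 had 0.213 and 0.178 CPM. Among untreated barrows the low value was that of the library labelled barrow 15.

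In untreated pigs alone, 2 boars against 3 barrows with the spread shared with the Myodin pigs, 10 of 8484 genes changed (0.118%), 8 higher and 2 lower in boars, and 1079 had an unadjusted edgeR p under 0.05 (12.7%). THEM5, an acyl-CoA thioesterase of mitochondria, had 25.1 and 18.4 CPM in the untreated boars and 0, 0.230 and 0.213 CPM in the untreated barrows, a fitted log2 fold change of 7.13 (edgeR adjusted p = 0.0368) that rests on 4 counts in those barrows. With 0, 2, 2, 7 and 67 counts in barrows 13, 14, 15, 8 and 9, THEM5 passed the filter on low counts through the boars, where it is high. Its p is therefore given as a description. MAPK4, an atypical MAP kinase, had 12.2 and 7.14 CPM against 0.203, 0.115 and 0.213 CPM (log2 fold change 5.67, edgeR adjusted p = 0.0368), with 5 counts in the barrows. PNPLA3 rose with a log2 fold change of 3.56 and ENSSSCG00000032840 was also among the 10. The others were TNXB, an extracellular matrix tenascin (1.52), PPP1R1A, an inhibitor of protein phosphatase 1 (1.82), ENSSSCG00000000194 (1.33) and ENSSSCG00000038557 (5.35), which rose, and MANEA (-1.22) and ENSSSCG00000034735 (-1.84), which fell. Leaving out barrow 14, boar 25 or boar 27 left 0 changed genes, and leaving out barrow 13 or the library labelled barrow 15 left 1 each, which was not 1 of the 10.

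In the Myodin pigs, 3 boars against 2 barrows, edgeR called 0 genes changed (925 of 8484 at an unadjusted p under 0.05, 10.9%), while DESeq2 called 70. That 0 rested on boar 22: without it, edgeR called 208 genes in Myodin pigs (1726 at an unadjusted p under 0.05), and the boars left were 23 and 24, which stood apart on the first principal component and had the highest macrophage and lowest hepatocyte marker sums of the 10 pigs. Among the 208 were the interferon-induced GBP1 (2.32) and PSMB8 (2.16) and the T cell markers CD3E (1.82) and CD8A (1.83), chosen after their values were seen, and the part of these boars in the count was not tested. Leaving out the library labelled barrow 15 gave 1 changed gene in Myodin pigs and 816 at an unadjusted p under 0.05. THEM5 had 2.40, 5.34 and 2.76 CPM in boars 22, 23 and 24 and 0.623 and 4.77 CPM in barrows 8 and 9, and the groups overlapped (log2 fold change 0.34). That overlap rested on barrow 9 alone, as barrow 8 lay below every Myodin boar. MAPK4 had 1.40, 5.05 and 1.083 CPM in these boars and 1.96 and 1.57 CPM in these barrows (0.50). Both Myodin barrows thus had more of either transcript than any untreated barrow, and every Myodin boar had less than either untreated boar. The study kept its control pigs in a room of their own and penned the groups apart, so Myodin and housing cannot be told apart. The test of the difference between the 2 differences gave -6.79 on the log2 scale for THEM5 (edgeR adjusted p = 0.172) and -5.16 for MAPK4 (edgeR adjusted p = 0.191). edgeR called 0 genes in that test (830 at an unadjusted p under 0.05, 9.78%), DESeq2 82 and limma 0, and without boar 22 edgeR called 72. Leaving out the library labelled barrow 15 left 0 called and 590 at that unadjusted p. In the fit of all 24 pigs, 11 genes passed, with THEM5 and MAPK4 among them at edgeR adjusted p of 0.0356 and 0.0252.

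Of the changed genes, PNPLA3 had log2 fold changes of 3.56 in untreated and 2.19 in Myodin pigs (edgeR adjusted p of the difference = 0.513) and ENSSSCG00000032840 of 6.92 and 5.58 (0.904 in the same edgeR test). NT5E had log2 fold changes of -1.94 in untreated and -2.09 in Myodin pigs, CA2 of -2.06 and -1.99, RTL4 of -2.11 and -1.79, and IL15 of 1.69 and 1.49. None of the last 4 passed the adjusted edgeR test within a treatment. The panel genes DHRS4 (1.63 and 0.18), CACNA1H, a T-type calcium channel subunit (2.60 and 0.06), the glycosyltransferase gene B3GNT8 (1.39 and 0.07), TERF2 (1.15 and 0.27) and ASB4, an adaptor of a ubiquitin ligase (2.002 and 0.22), had the smaller value in Myodin pigs, and no test of these differences passed, the smallest edgeR adjusted p among the 5 being 0.318. KCNB2, a potassium channel gene (1.18 and -0.12), ITPR3, a calcium release channel gene (0.80 and -0.35), and DUOX1, a hydrogen peroxide-forming oxidase (-1.83 and 0.068), had opposite signs in the 2 treatments without passing in either. PPL, a plakin, had 0.79 and 0.20.

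**Figure D3:**
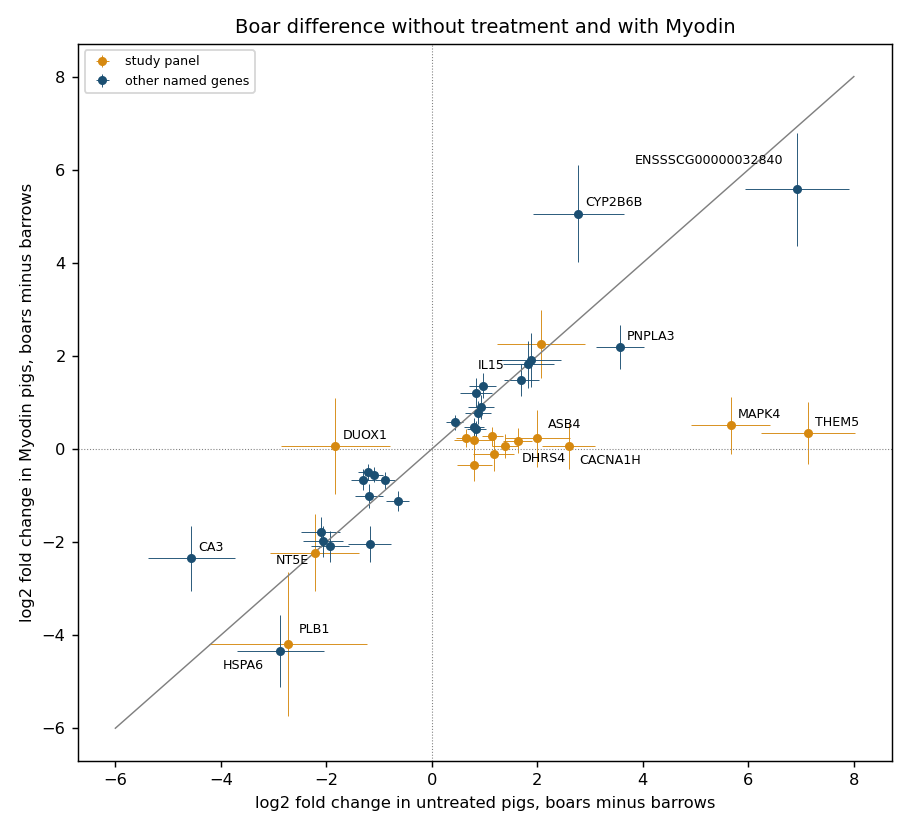
Each point is a named gene with its log2 fold change of boars minus barrows in untreated pigs (x axis, 2 boars and 3 barrows) and in Myodin pigs (y axis, 3 boars and 2 barrows); bars are standard errors and the diagonal marks equal values. THEM5 (7.13 and 0.34) and MAPK4 (5.67 and 0.50) lie far from the diagonal, and NT5E (-1.94 and -2.09) lies close to it.

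By gene list, PNPLA3, of fatty acid and triglyceride synthesis, was the only member of the 21 lists that changed in the edgeR fit of the 10 pigs. The lists are therefore described by members at an unadjusted edgeR p under 0.05, beside 6.64% of all tested genes higher and 6.13% lower, and members are named mostly by that p or by not overlapping, after their values were seen. Without the library labelled barrow 15, the numbers of higher and lower members stayed the same in 14 of the 21 lists and moved in 7. Without boars 23 and 24 they stayed the same in 5 and moved in 16, when 8.40% of all tested genes were higher and 8.88% lower. None of the members named in the following passed the adjusted edgeR test. DESeq2 called 7 members besides PNPLA3 and the panel, namely GSTM3, GPT2, BCKDHA, ACOT12, THRSP, CROT and APCS, with adjusted p from 0.000163 to 0.0330, where it called 0.438% of all genes. The edgeR fit of all 24 pigs, with 0.331% of genes called, called BCKDHA and GPT2 (edgeR adjusted p = 0.0462 and 0.0499). Leaving out boar 22 in the fit of the 10 pigs, with 0.425% called, made HSD17B2, a steroid dehydrogenase (-4.61), ACAA2, a thiolase of fatty acid oxidation (-2.04), FMO5 (-1.36), BCKDHA (1.14) and the panel gene GLYATL2 (2.45) pass (edgeR adjusted p from 0.0156 to 0.0363). For GLYATL2, which passed the filter on low counts only through the boars, this is a description. With all 10 pigs HSD17B2 had -2.66 and ACAA2 -1.14, and neither had an unadjusted edgeR p under 0.05. Shares of members without overlap stand beside 3.34% of all tested genes, or 5.47% without the library labelled barrow 15.

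Of 21 tested genes of cholesterol synthesis and uptake, 6 were higher at that p and 0 lower (28.6%), 17 had a positive log2 fold change, and the median was 0.29. SQLE, the squalene epoxidase, had 31.8, 31.1, 65.1, 72.3 and 42.0 CPM in boars 25, 27, 22, 23 and 24 and 28.4, 16.6, 20.7, 13.6 and 29.3 CPM in barrows 13, 14, 15, 8 and 9 (log2 fold change 1.002, SE 0.28, edgeR adjusted p = 0.214). FDPS, the farnesyl diphosphate synthase, had 119 to 282 CPM in boars and 58.7 to 113 CPM in barrows (0.91), and MVD, the mevalonate diphosphate decarboxylase, had 34.8 to 68.9 and 24.1 to 31.5 CPM (0.81). These 3 of 21 genes did not overlap, beside 3.34% of all tested genes. ACAT2, a thiolase (0.67), and CYP51A1, the lanosterol demethylase (0.69), were higher with overlap. Without the library labelled barrow 15, 4 members were higher at that p, and without boars 23 and 24, 7 were, with 0 lower in both. Leaving out that library gave 4 of 21 higher without overlap, beside 5.47% of all tested genes in either direction. The summed level of the list overlapped, from 2655 to 4746 CPM in boars and from 2438 to 3059 CPM in barrows, with boar 22 highest.

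Among 30 tested genes of fatty acid and triglyceride synthesis, 3 were higher and 1 lower at that p (13.3%) and the median was -0.07. Without boars 23 and 24, 6 were higher and 1 lower, and the median was 0.05. THRSP, a lipogenic regulator that responds to thyroid hormone, had 16.7 ± 10.5 CPM in boars and 4.79 ± 2.80 CPM in barrows (log2 fold change 1.71). Boars 23 and 24 had 30.7 and 25.2 CPM, the other boars 7.39 to 10.3 CPM and the barrows 2.14 to 9.29 CPM. PLIN5 of lipid droplets (0.48) was higher, and MTTP, which loads lipid onto apolipoprotein B, was lower (-0.42). Of 27 genes of fatty acid oxidation and ketone bodies, 2 were higher and 0 lower, namely the peroxisomal carnitine octanoyltransferase CROT with 701 ± 530 against 240 ± 60.4 CPM (1.41) and the acyl-CoA thioesterase ACOT12 with 229 ± 125 against 89.4 ± 34.7 CPM (1.30). Boar 23 was highest for CROT, and boar 22, at 243 CPM, lay among the barrows. The list had 5 higher and 2 lower members without boars 23 and 24.

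Of 26 tested genes of the urea cycle and amino acid breakdown, 1 was higher and 3 were lower (15.4%). GPT2, the mitochondrial alanine aminotransferase, had 44.4, 35.9, 79.8, 31.3 and 137 CPM in boars 25, 27, 22, 23 and 24, and 424, 296, 581, 298 and 156 CPM in barrows 13, 14, 15, 8 and 9 (log2 fold change -2.44, SE 0.52, edgeR adjusted p = 0.154). BCKDHA, a subunit of the dehydrogenase of branched-chain keto acids, had 312 to 792 CPM in boars and 185 to 291 CPM in barrows (1.02). Neither gene overlapped between boars and barrows, and they differed in direction. DMGDH (-0.46) and GLDC (-0.36) of glycine metabolism were lower. Leaving out the library labelled barrow 15 gave 1 higher and 2 lower, and without boars 23 and 24, 1 was higher and 8 were lower. Of 20 genes of glycolysis, gluconeogenesis and glycogen, LDHA (-0.55) and GCKR (-0.43) were lower and 0 higher, and without boars 23 and 24, 1 was lower.

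**Figure D4:**
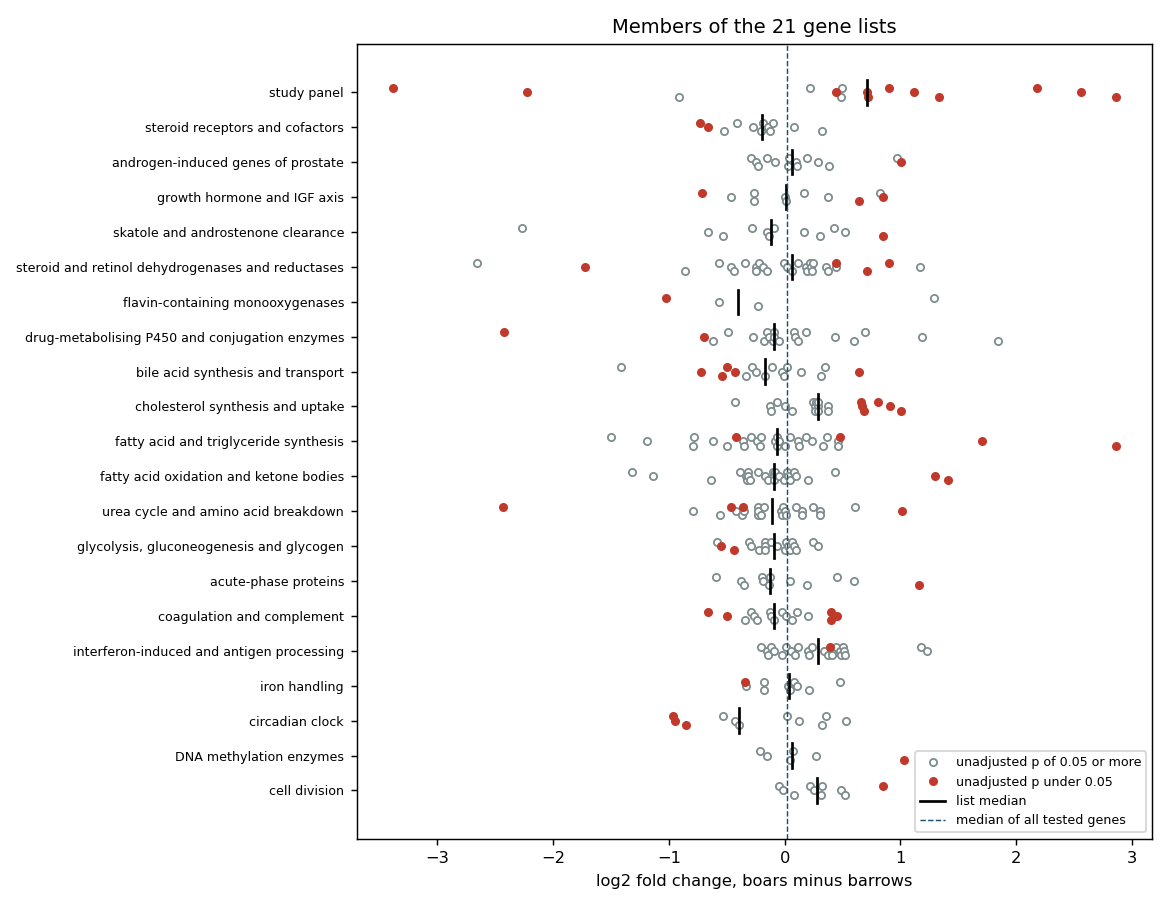
Each point is the log2 fold change of a tested list member, boars minus barrows, filled red where the unadjusted edgeR p was under 0.05; black bars are list medians and the dashed line is the median of all tested genes, 0.02. Cholesterol synthesis has 6 filled points, all positive, and the circadian clock 3, all negative.

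Genes of steroid action gave 2 lower and 0 higher of 12 receptors and cofactors. The oestrogen receptor gene ESR1 had 8.08 ± 2.503 and 13.96 ± 5.31 CPM (-0.73). Of 14 tested genes known as androgen-induced in prostate, 1 was higher at that p: FKBP5, a co-chaperone of steroid receptors, had 257 to 440 CPM in boars and 121 to 234 CPM in barrows without overlap (1.01, SE 0.23, edgeR adjusted p = 0.164). The list median was 0.07. Without boars 23 and 24, 2 were higher and 2 lower and the median was -0.09.

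In the growth hormone and IGF axis, 2 of 11 tested genes were higher and 1 lower (27.3%). IGF1 had 29.0 ± 5.45 CPM in boars and 17.9 ± 5.99 CPM in barrows (SD, n = 5 each; log2 fold change 0.64), with barrow 8 at 28.0 CPM among the boars. IGFALS, which carries IGF in serum, had 63.8 ± 24.1 and 36.2 ± 6.08 CPM (0.85). SOCS1, an inhibitor of cytokine signalling through JAK kinases, had 7.21 to 11.5 CPM in boars and 13.5 to 18.01 CPM in barrows (-0.72) and did not overlap.

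The list of skatole and androstenone clearance had 12 tested genes, of which 1 was higher, 0 lower, and 0 without overlap. AHR, the receptor for aryl hydrocarbons and indoles, had 109 ± 38.7 CPM in boars and 57.8 ± 19.1 CPM in barrows (log2 fold change 0.85). Neither of the next genes reached that p, and they are given for their roles. CYP2A19, which oxidises skatole, had a log2 fold change of -2.27 (edgeR adjusted p = 0.511), and SULT2A1, a steroid sulfotransferase, of -0.53 (edgeR adjusted p = 0.674). Without boars 23 and 24, 1 was higher and 2 lower. Of 29 steroid and retinol dehydrogenases and reductases, 3 were higher and 1 lower (13.8%): RDH16, a retinol and androgen dehydrogenase, had 1857 ± 459 and 1139 ± 174 CPM (0.71), beside the panel genes DHRS4 and DHDH, and SDR9C7 was lower (-1.72). The numbers were 4 higher and 0 lower without the library labelled barrow 15. FMO5 had 294 ± 132 CPM in boars and 717 ± 317 CPM in barrows (-1.03) and was lower at that p, with 0 higher, among 4 flavin-containing monooxygenases. Of the 4, 1 was higher and 1 lower without the library labelled barrow 15, and without boars 23 and 24, 3 were lower. Of 21 further enzymes of drug metabolism, GSTM3, a glutathione transferase, had 0.918 to 5.24 CPM in boars and 4.06 to 20.7 CPM in barrows (-2.42), and TPMT, a thiopurine methyltransferase, was lower (-0.70). Of the 21, 1 was higher and 5 were lower without boars 23 and 24.

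Bile acid synthesis and transport had 1 higher and 4 lower of 17 tested genes (29.4%). The bile acid uptake carrier SLC10A1 was higher (log2 fold change 0.64). The organic anion carrier SLCO1A2 had 105 to 132 CPM in boars and 139 to 219 CPM in barrows without overlap (-0.54), and the sterol exporter ABCG8 (-0.50), KLB, the co-receptor for FGF19 (-0.72), and SCP2 (-0.43) were lower. Leaving out the library labelled barrow 15 gave 0 higher and 3 lower, so that SLC10A1 no longer reached that p, and without boars 23 and 24, 0 were higher and 5 lower. Of 17 genes of coagulation and complement, 3 were higher and 2 lower (29.4%). Coagulation factor F5 had 242 to 270 CPM in boars and 343 to 532 CPM in barrows (-0.66, SE 0.14, edgeR adjusted p = 0.155). CFI, complement factor I, had 890 to 1331 against 1378 to 1812 CPM (-0.50). SERPINC1, antithrombin and also a hepatocyte marker, had 1904 ± 109 against 2386 ± 224 CPM (-0.29) but did not reach that p. These 3 of 17 genes did not overlap, beside 3.34% of all tested genes, while F8 (0.45), F12 (0.40) and CFD (0.40) were higher. The numbers were 2 higher and 4 lower without boars 23 and 24. Hepatocyte markers, 7 of 12 in the table, summed to 90583 to 150380 CPM in boars and 149566 to 202536 CPM in barrows, and 6 of the 7 had a negative log2 fold change. Their part in the lower coagulation and bile acid genes was not tested.

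In the circadian clock list, 3 of 11 tested genes were lower and 0 higher (27.3%), and the median was -0.39. TEF had 91.1 ± 16.4 CPM in boars and 170 ± 43.4 CPM in barrows (log2 fold change -0.86), and the related factor DBP (-0.97) and the repressor CRY2 (-0.94) were also lower, with overlap in each. The hour of slaughter of each pig is not given in the sources used here. Of 12 acute-phase entries tested, with SERPINA1 present under 2 identifiers, APCS, serum amyloid P, was higher at 2754 ± 1902 against 1007 ± 176 CPM (1.16; 1 higher and 2 lower without boars 23 and 24), of 10 cell division genes the inhibitor CDKN1A (0.85), and of 6 enzymes of DNA methylation TET3 (1.03). APCS had 5345 and 4225 CPM in boars 23 and 24 and 1234 to 1650 CPM in the other boars, against 808 to 1279 CPM in barrows. Of 10 iron genes, IREB2 was lower (-0.34), and without the library labelled barrow 15, 0 were lower and 0 higher.

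Of 26 interferon-induced and antigen processing genes, 20 had a positive log2 fold change and the median was 0.29, but 1 gene, CIITA (0.39), reached the unadjusted p (3.85%). The sign rested on boars 23 and 24: without them, 3 of 26 were positive, 7 were lower at that p and the median was -0.65. The summed level was 1837, 2875, 1772, 4201 and 10716 CPM in boars 25, 27, 22, 23 and 24, and 4906, 1684, 2170, 2474 and 2037 CPM in barrows 13, 14, 15, 8 and 9. Boar 24 and barrow 13 were thus the highest of their groups. IFI6, an interferon-induced mitochondrial protein, reached 4970 CPM in boar 24 and 1241 CPM in barrow 13, and was at 199 CPM in barrow 14. Macrophage markers, 9 of 12 in the table, moved with these boars, at 2264 and 2167 CPM in boars 23 and 24 against 1147 to 1398 CPM in the other 8 pigs, and hepatocyte markers were lowest in the same boars at 99143 and 90583 CPM. Whether these belong together was not tested.

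**Figure D5:**
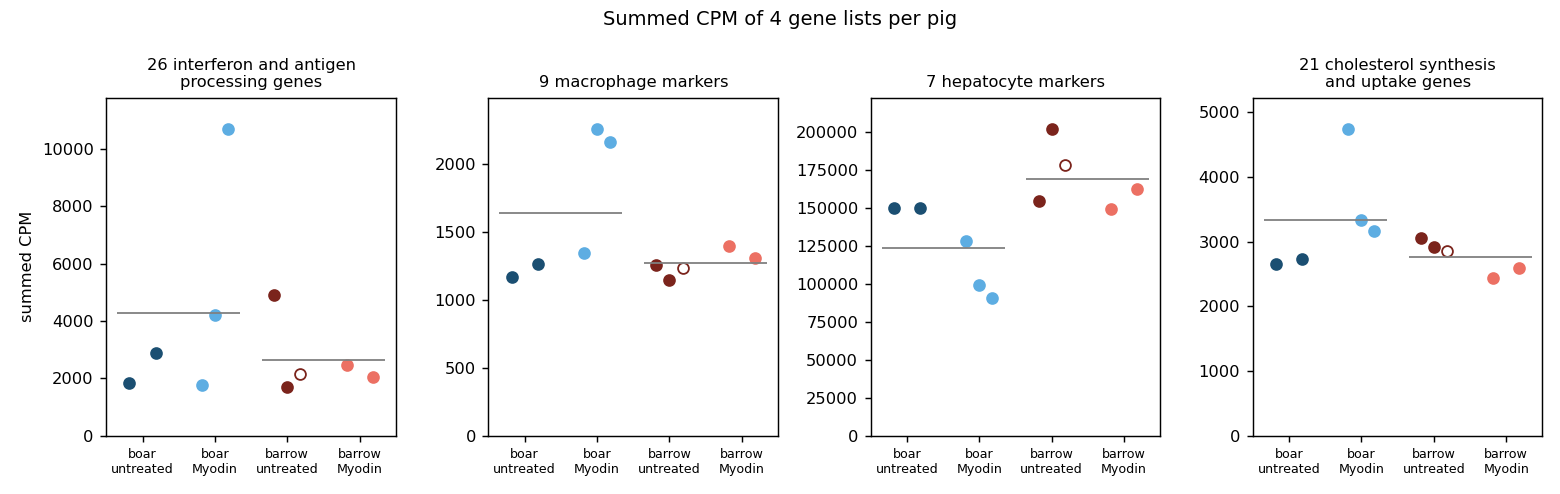
Each point is the summed CPM of a list in 1 pig, with lines at the means over 5 boars and 5 barrows and the open point for the library labelled barrow 15. Boars 23 and 24 are highest for the 9 macrophage markers (2264 and 2167 CPM) and lowest for the 7 hepatocyte markers (99143 and 90583 CPM), and boar 24 is highest for the interferon list (10716 CPM).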

How the data were processed

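Liver RNA of 24 pigs was sequenced from stranded poly-A libraries. The authors trimmed reads with Skewer and mapped them with STAR 2.5 to Sscrofa11.1, per the labels' processing notes, and deposited counts per gene without normalization for 13463 genes; the counting tool is not given in the sources used here. They also deposited log2(TPM + 1) values, with a pseudocount of 1, used for the limma alternative and the TPM means. Counts of the 10 pigs were filtered with filterByExpr by the 4 groups, scaled by TMM and tested in R 4.3.3 with edgeR 4.0.16 (quasi-likelihood, treatment and type of pig), two-sided, with Benjamini-Hochberg adjustment over 8484 genes. Standard errors were the fold change divided by the square root of F. Within-treatment contrasts came from a fit of 4 groups. Each pig is 1 library, so p-values measure the spread between these animals.

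DESeq2 1.42.0, limma 3.58.1, RLE scaling, no count filter, no fold threshold, all 24 pigs, no covariate and each pig left out were alternatives, and leaving out boars 23 and 24 was chosen after seeing the data. The tests were tried on simulated data. Symbols come from the deposited table, in which 3779 genes have none; 359 of these were named from a reference table. Positions are RefSeq's (Sscrofa11.1), matched by unique symbol for 7212 tested genes. Named genes are the 12 with the largest fold in each direction among changed genes with a symbol and a mean log2 CPM of at least 1, filled up by the smallest p, the changed list members and the study's panel; some genes are not reported here. ENSSSCG00000032840 falls outside this rule. The members and the 21 gene and 11 marker lists were chosen with earlier results of these data known.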

Additional observations from a re-analysis of the deposited data

Results flagged for a closer look

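Among 80 groups of 5 pigs tested, 5 held a pig set far from the others by Dixon's test, and chance alone gives about 1 in 20. These were HSPA6 in boar 24, lowest at 1.08 CPM, WWP2 in barrow 8, lowest at 76.3 CPM, MANEA in barrow 13, highest at 76.5 CPM, TERF2 in boar 22, lowest at 91.4 CPM, and ITPR3 in boar 24, lowest at 21.5 CPM. Outside the comparison, KDM5D, a Y-linked gene, had 35 counts in the library labelled sow 16 and 95 counts in the library labelled sow 18, although both are labelled as females, and the library labelled barrow 15 had 0.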

How the results depend on the processing

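The number of changed genes was 6 in all pigs, 10 in untreated pigs, 0 in Myodin pigs and 0 for the difference between the 2. DESeq2, which was run without the filter on low counts, gave 59, 126, 70 and 82, and the fit of all 24 pigs 29, 51, 0 and 11. Neither was run without the library labelled barrow 15, so whether their calls move with it was not tested. Without the count filter the numbers were 9, 32, 0 and 1, and limma gave 5, 30, 0 and 0, with the median log2 fold change of tested genes at 0.18 in untreated pigs and -0.18 for the difference. Of the 6 changed genes, limma called 4. RLE scaling and no fold threshold kept the numbers at 6, 10, 0 and 0. Without the covariate there were 10 changed genes, and 3 without it and without the library labelled barrow 15. Leaving out 1 pig in turn gave 0 to 36 changed genes in all pigs, 0 to 40 in untreated pigs, 0 to 208 in Myodin pigs and 0 to 72 for the difference, the highest number without boar 22 each time. Leaving out boars 23 and 24 gave 14, and without the library labelled barrow 15 as well 2. The signs of KCNB2 (-0.12), DUOX1 (0.068) and ITPR3 (-0.35) turned in Myodin pigs. The cause was not tested. No paired analysis was possible because boars and barrows share no pig number. Depth limits the fold of genes with few counts, such as ENSSSCG00000032840 with 3 counts over the barrows, whose fitted value depends on the prior count.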

Other observations

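Some genes that the text has not described passed the threshold in the edgeR fit of all 24 pigs, where 29 genes changed between the same boars and barrows, and they were chosen after their values were seen. SOAT2, which esterifies cholesterol in liver and intestine, had 30.8 to 126 CPM in boars and 16.8 to 46.0 CPM in barrows (log2 fold change 1.53, edgeR adjusted p = 0.0293). RIPK3, a kinase of necroptosis, had 36.0 to 90.5 CPM in boars and 92.0 to 204 CPM in barrows (-1.21, edgeR adjusted p = 0.0266), and MIOX, the myo-inositol oxygenase, had 6.58 to 28.7 and 38.1 to 115 CPM (-1.81, edgeR adjusted p = 0.0499). RIPK3 and MIOX did not overlap between boars and barrows, and SOAT2 did.

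In the same fit, MPDZ and SLC16A10 were the genes that passed the test of the difference between treatments with a positive sign (2.11 and 2.38 on the log2 scale, edgeR adjusted p = 0.0391 and 0.0391), and in untreated pigs both were lower in boars. MPDZ, a scaffold protein of tight junctions, had 60.1 and 57.4 CPM in untreated boars and 168 to 192 CPM in untreated barrows, against 78.1, 164 and 162 CPM in Myodin boars and 76.4 and 113 CPM in Myodin barrows. SLC16A10, an aromatic amino acid transporter, had 5.41 and 11.02 CPM against 15.02 to 22.2 CPM in untreated pigs, and 11.06 to 15.6 CPM against 5.70 and 6.34 CPM in Myodin pigs. Neither passed in the fit of the 10 pigs alone.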
